A study of Mus musculus with 28 samples.

Results

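The RNA bound to astrocyte ribosomes was compared with the RNA of the whole cortical extract in control (Ctrl) mice. The data were TRAP-Seq libraries, made by translating ribosome affinity purification followed by sequencing. Of the 28 samples of the series, 6 were used, chosen by their labels: an immunoprecipitated (IP) library and an Input library from each of 3 Ctrl mice. All genes were members of the comparison. Of 53342 gene identifiers in the count table, 24385 passed the filter on low counts and were tested. The mice were taken at postnatal day 24 (P24). By the study's methods, Ctrl mice were loxP/loxP or loxP/+ at the locus that is deleted from astrocytes in the cKO mice. The methods do not name mGFAP-Cre in that Ctrl genotype. TRAP mice carried a fusion of EGFP with the ribosomal protein Rpl10a, expressed only after Cre recombination, and the Cre driver was mGFAP-Cre. The Ctrl genotype as given lacks the driver that the tag needs. The full genotype of the Ctrl TRAP mice is not stated, nor whether the locus was partly deleted in their astrocytes. The tag marks cells in which mGFAP-Cre was or had been active. How much RNA of untagged cells the pulldown carried into IP was not tested. Each pair of libraries came from the cortex of 1 mouse: 10% of the cleared extract was kept as Input, and ribosomes were pulled down from the rest with antibodies to GFP. The 6 TRAP-Seq libraries of 3 cKO mice, which carried mGFAP-Cre and loxP/loxP, were used as a second set beside the Ctrl ratios.

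Astrocytes take up the glutamate, GABA and potassium released by neurons, store glycogen, supply lipids and antioxidants, and cover blood vessels with their endfeet. In TRAP a transcript is recovered when it is carried by tagged ribosomes, so a higher level in IP than in Input reflects expression in the tagged cells, ribosome loading, or both. A level in IP alone can also hold RNA carried over from untagged cells. Input holds the RNA of neurons, oligodendrocytes, microglia and vessels as well as that of the astrocytes themselves.

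Between 24474701 and 25284490 reads were counted on genes per Ctrl IP library, and between 18433087 and 23518706 per Ctrl Input library. Levels are given as CPM, the count scaled to the size of its library, with library sizes corrected by the TMM method. A count of 3 corresponded to between 0.119 and 0.163 CPM before this scaling. Replicates were close to each other: the lowest Pearson r of log2 CPM across genes was 0.985 between IP libraries and 0.980 between Input libraries. Between an IP and an Input library, r lay between 0.872 and 0.893. The counts of replicate libraries nevertheless differed by more than counting error, so that no library was a copy of another. The transcript of Rpl10a, the gene used for the tag, was at 373, 346 and 327 CPM in IP and 84.1, 95.2 and 79.0 CPM in Input (log2 ratio 2.02 ± 0.10, SE). The Y-linked genes Kdm5d and Eif2s3y had between 180 and 492 counts in both libraries of Ctrl mouse 2. They had at most 2 counts in the libraries of Ctrl mice 1 and 3 and of the cKO mice. Ddx3y, also Y-linked, had between 439 and 3142 counts in all 12 TRAP-Seq libraries. The paper describes the mice as sex-matched littermates. Whether the Y-linked difference between mice bears on the comparison of Ctrl with cKO ratios was not tested. Xist was at or below 2.06 CPM in every library, without TMM correction. Among the cKO libraries, the Input of mouse 1 stood apart, with Rpl10a at 197 CPM against 123 and 113 CPM in the other Input libraries, on library sizes without TMM correction.

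IP and Input differed for most genes. In a paired fit with the mouse as a block (edgeR quasi-likelihood test, adjusted p under 0.05), 17332 of 24385 genes were called (71.1%). Of the genes tested, 8627 were higher in IP (35.4%) and 8705 were lower (35.7%). These shares are the background for every count of list members given below. At least 2-fold differences were called for 4776 genes higher (19.6%) and 5017 genes lower in IP (20.6%). At least 8-fold differences were called for 682 genes higher and 177 genes lower. The 3 IP values did not overlap the 3 Input values in 74.7% of the genes tested, and in 96.9% of those called. The median log2 ratio over all genes was -0.03. Ratios are relative to the total of each library, and for a bulk extract fewer cells of a type and less RNA per cell cannot be told apart.

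Transcripts that mark astrocytes were higher in IP in every case. Of 20 astrocyte markers tested, 20 were called higher, beside 35.4% of all genes, and their median log2 ratio was 3.44 against -0.03 over all genes. Gfap, the intermediate filament gene of astrocytes, was at 1632, 1936 and 1624 CPM in IP and 133, 162 and 115 CPM in Input. This was a 12.7-fold difference (log2 ratio 3.67 ± 0.11, adjusted p = 3.7e-08, edgeR). Aldoc, the aldolase isoform of the brain, was at 4889.6, 5317 and 6419 CPM in IP and 395, 451 and 418 CPM in Input (log2 3.71 ± 0.12). Apoe, the main apolipoprotein of the brain, was at 2607, 3654 and 4072 CPM in IP and 189.6, 288 and 220.0 CPM in Input (log2 3.88 ± 0.14). Aqp4, the water channel of astrocyte endfeet, was at 287, 486 and 308 CPM in IP and 11.6, 17.2 and 15.2 CPM in Input. Its 24.2-fold difference (log2 4.59 ± 0.13) was the largest of the list. In all of these genes every IP library lay far above every Input library.

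The smallest ratio among the markers was that of Aldh1l1, a folate enzyme, at 266, 229.8 and 332 CPM in IP and 54.7, 51.6 and 50.6 CPM in Input (log2 2.38 ± 0.13). Slc1a2 and Slc1a3 encode the glutamate transporters GLT-1 and GLAST. Slc1a2 had a log2 ratio of 2.67 ± 0.11 and Slc1a3 of 3.93 ± 0.11. Summed over the list, astrocyte markers made up 24261, 28025 and 30575 CPM in IP and 2256, 2571 and 2433 CPM in Input. The sum was 11.4 times as high in IP. The list median was 3.39 in mouse 1, 3.36 in mouse 2 and 3.64 in mouse 3, so the size of the difference was similar in each pair.

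**Figure D1:**
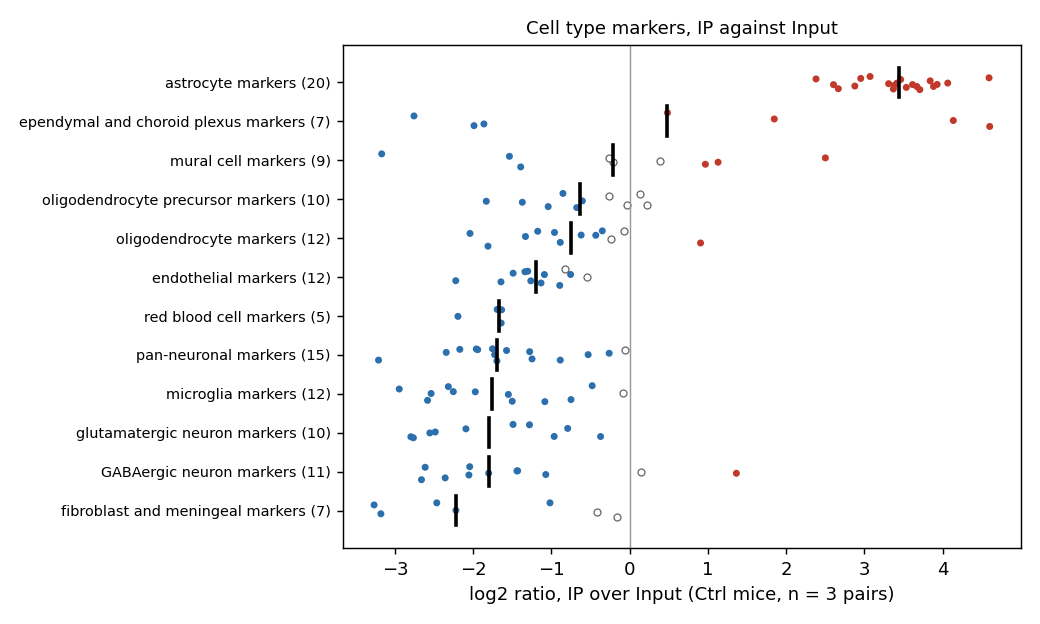
Fitted log2 ratio of IP over Input in Ctrl mice (x axis, n = 3 pairs) for the members of 12 cell type marker lists (y axis, with the number of members tested). Each point is 1 gene, red where higher and blue where lower in IP at an adjusted p under 0.05 and open where not called, and black bars are list medians. The astrocyte list lies wholly to the right with a median of 3.44, and the pan-neuronal list lies to the left with a median of -1.70.

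The protein-coding genes with the largest ratios included enzymes of hormone, vitamin and xenobiotic metabolism, and proteins that bind metals or lipids. Nat1, an arylamine N-acetyltransferase, was at 16.5, 14.8 and 14.4 CPM in IP and 0.480, 0.291 and 0.466 CPM in Input (36.1-fold, log2 5.17 ± 0.20). Dio2, the deiodinase that makes active thyroid hormone from thyroxine, was at 230.3, 285 and 223 CPM in IP and 7.73, 8.16 and 7.71 CPM in Input (log2 4.96 ± 0.12). Ttpa, which transfers vitamin E, was at 70.1, 76.6 and 67.3 CPM in IP and 2.23, 2.68 and 2.33 CPM in Input (log2 4.89 ± 0.12). The IP values of these genes varied little between mice, and the rule that named them required no overlap with the Input values. Fabp7, a fatty acid-binding protein of radial glia and astrocytes, was at 350.1, 395 and 182 CPM in IP and 13.5, 9.79 and 9.26 CPM in Input (log2 4.77 ± 0.19). Its IP level was lowest in mouse 3. Etnppl, which breaks down phosphoethanolamine, was at 90.2, 58.9 and 219.6 CPM in IP and 4.28, 2.68 and 9.67 CPM in Input. Its levels in IP and Input were both lowest in mouse 2 and highest in mouse 3, and its paired log2 ratio was 4.46 ± 0.11. The 12 genes also included Mt2, a metallothionein (4.89), Aqp4, Gm19935 (4.69) and Pdzph1 (4.54). The remaining log2 ratios were 4.50 for Mgst1, a microsomal glutathione transferase, 4.48 for Cldn10, a claudin, and 4.46 for Kctd14.

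Levels between genes were compared per length, as TPM. Glul, the glutamine synthetase that turns glutamate into glutamine, reached a mean of 4719.8 TPM in IP. It was followed by the metallothionein Mt2 (4152 TPM), the protease inhibitor Cst3 (3447 TPM) and the metallothioneins Mt1 (3378 TPM) and Mt3 (3314 TPM). Aldoc stood at 3185 TPM and Apoe at 3021 TPM. All of these were higher in IP, with log2 ratios between 3.13 for Mt3 and 4.89 for Mt2. The ubiquitin gene Ubb was as abundant in IP (3000.2 TPM) but was lower there than in Input (log2 ratio -0.33 ± 0.10). Among the 12 highest values were also Gm17482, Gm21954 and Gm11077, whose gene models of 48, 51 and 84 exonic bases overlap other genes, so that their TPM is uncertain.

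Among noncoding genes the largest ratio was that of the lincRNA 2900052N01Rik, at 192, 199.8 and 153 CPM in IP and 5.42, 4.66 and 4.35 CPM in Input (37.6-fold, log2 5.23 ± 0.12). Gm26512 overlaps Dio2 on the opposite strand and had a log2 ratio of 4.43 ± 0.15. BC064078 and Gm6145 stood at 4.40 and 4.32. Gm45774 overlaps Mt2 on the opposite strand and shares 212 bases with it. Its level was 1190.1, 1234 and 1539 CPM in IP and 39.5, 39.6 and 59.3 CPM in Input, close to that of Mt2 at 1163, 1223 and 1518 CPM in IP and 39.8, 38.1 and 54.7 CPM in Input. Where the strand setting is not stated, reads of such overlapping genes cannot be told apart. Near-identical copies carry the same uncertainty. The pseudogene Glns-ps1, 96.8% identical to Glul, had a log2 ratio of 3.47, as Glul did. Rpl10a-ps1, identical to Rpl10a over 654 bases, had a ratio of 2.08. These pseudogenes were named after their values were seen.

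Neuronal transcripts were lower in IP, by amounts that varied widely from gene to gene. Of the pan-neuronal markers, 14 of 15 were called lower and none higher, beside 35.7% of all genes lower, with a median log2 ratio of -1.70. Syn1, a synaptic vesicle phosphoprotein gene, was at 97.7, 89.9 and 120.4 CPM in IP and 950.5, 1089 and 808 CPM in Input (9.25-fold lower, log2 -3.21 ± 0.16). Syp, another synaptic vesicle protein gene, had a log2 ratio of -2.34 ± 0.14. Map2, a microtubule protein of dendrites, was at 298, 284 and 293 CPM in IP and 434, 413 and 415 CPM in Input (log2 -0.53 ± 0.09). Snap25, part of the vesicle fusion machinery, was at 1383, 1456 and 1769.7 CPM in IP and 1655, 1651 and 2244 CPM in Input (log2 -0.26 ± 0.10). The IP and Input ranges of Snap25 overlapped, while those of Syn1 were far apart. Elavl4, a neuronal RNA-binding protein gene, was not called, at 75.0, 78.6 and 82.4 CPM in IP and 79.3, 77.2 and 88.5 CPM in Input. Summed over the list, 40.2% of the Input level was present in IP, with sums of 3750.4, 3785 and 4338 CPM in IP and 9325, 10259 and 9989.8 CPM in Input.

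All 10 glutamatergic neuron markers were lower in IP. Their log2 ratios ranged from -2.80 for the kinase Camk2a to -0.37 for Fezf2, a transcription factor of deep-layer neurons. Slc17a7, the vesicular glutamate transporter, was at 150.0, 172 and 187 CPM in IP and 1075, 1483 and 945 CPM in Input (log2 -2.76 ± 0.15). Of the GABAergic markers, 9 of 11 were lower, led by the vesicular GABA transporter Slc32a1 (-2.66 ± 0.19) and the calcium-binding protein Pvalb (-2.61 ± 0.11). Dlx1, an interneuron transcription factor, was not called (0.14 ± 0.11). Adarb2, related to RNA-editing enzymes, went the other way, at 203, 185 and 188 CPM in IP and 75.8, 72.5 and 75.2 CPM in Input (log2 1.36 ± 0.09).

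Of the oligodendrocyte markers, 9 of 12 were lower in IP, beside 35.7% of all genes, with a median log2 ratio of -0.75. The myelin genes Mag (-1.81 ± 0.19) and Mog (-1.33 ± 0.13) and the fatty acid hydroxylase Fa2h (-2.04 ± 0.15) were lowest. Ermn, a cytoskeletal gene of oligodendrocytes, was not called, at 31.4, 28.0 and 32.2 CPM in IP and 35.0, 27.6 and 34.3 CPM in Input. Aspa, which hydrolyses N-acetylaspartate, was higher in IP, at 16.3, 17.3 and 17.5 CPM in IP and 9.13, 8.16 and 9.98 CPM in Input (log2 0.91 ± 0.12). The list summed to 1743, 1890.1 and 2528 CPM in IP and 3021, 2981 and 3210.1 CPM in Input. Precursor markers were lower for 6 of 10 genes, beside 35.7% of all genes (median -0.64). Sox10, a transcription factor of the lineage, was at 12.9, 13.9 and 19.0 CPM in IP and 61.7, 59.7 and 41.9 CPM in Input (log2 -1.83 ± 0.19). Olig1 (0.13 ± 0.10) and Olig2 (0.22 ± 0.10), factors of the same lineage, were not called.

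Microglial markers were lower for 11 of 12 genes, beside 35.7% of all genes (median log2 ratio -1.76). The complement gene C1qc was at 0.686, 0.847 and 0.604 CPM in IP and 5.59, 6.18 and 4.76 CPM in Input (log2 -2.94 ± 0.21). The purinergic receptor P2ry12 was at 6.17, 6.63 and 5.88 CPM in IP and 8.43, 8.33 and 9.26 CPM in Input (log2 -0.48 ± 0.14). The microglial list summed to 129.7, 154 and 139 CPM in IP and 237, 254 and 226 CPM in Input. Endothelial markers were lower for 10 of 12 genes and higher for none, with a median of -1.20. Kdr, a receptor for vascular growth factor, had the lowest ratio (-2.22 ± 0.54). The 12 endothelial transcripts summed to 7.65, 8.39 and 6.38 CPM in IP and 15.8, 18.7 and 15.5 CPM in Input, so that they were scarce in both fractions.

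Of 9 mural cell markers 3 were higher and 3 lower in IP, shares close to the 35.4% and 35.7% of all genes. Acta2, the actin of smooth muscle, was at 5.72, 7.28 and 4.96 CPM in IP and 1.66, 0.874 and 0.621 CPM in Input, a 5.67-fold difference. Tagln (1.13 ± 0.16), which binds that actin, and the receptor Pdgfrb (0.97 ± 0.21) were also higher. Vtn (-1.39 ± 0.24), Myh11 (-1.54 ± 0.45) and Anpep (-3.17 ± 0.49) were lower. The list median of -0.21 changed sign without mouse 1, to 0.027. Fibroblast and meningeal markers were lower for 5 of 7 genes. Igf2, an insulin-like growth factor, was at 3.05, 3.08 and 3.02 CPM in IP and 31.6, 28.4 and 23.3 CPM in Input (log2 -3.18 ± 0.13). All 5 red blood cell markers were lower, with log2 ratios from -2.19 to -1.64. The globin gene Hba-a1 was at 13.9, 33.6 and 13.3 CPM in IP and 48.3, 81.8 and 48.9 CPM in Input, highest in mouse 2 in both fractions.

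Of 7 ependymal and choroid plexus markers, 4 were higher and 3 lower in IP, beside 35.4% higher and 35.7% lower over all genes. Foxj1, the transcription factor that directs the formation of motile cilia, was at 32.7, 25.2 and 25.7 CPM in IP and 9.13, 7.81 and 6.31 CPM in Input (log2 1.85 ± 0.12). Ccdc153, a gene expressed in ependymal cells, was at 37.5, 30.0 and 25.3 CPM in IP and 2.71, 1.11 and 1.45 CPM in Input (log2 4.14 ± 0.18). Tmem212 was at 1.75, 1.16 and 1.01 CPM in IP and 0.0874, 0.0583 and 0 CPM in Input, at or below the floor of 3 counts in Input. All 3 were higher in IP, and the remaining one, Rarres2, was higher by less (0.48 ± 0.11). Rarres2 lies outside the rule for named genes and was added after its value was seen. Ttr, the thyroxine carrier made by the choroid plexus, was lower, at 0.534, 0.270 and 0.604 CPM in IP and 4.54, 1.98 and 3.10 CPM in Input (log2 -2.76 ± 0.27). Clic6 (-1.99 ± 0.24) and Kl (-1.86 ± 0.36) were lower as well. The cells from which the ciliary transcripts came were not tested.

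**Figure D2:**
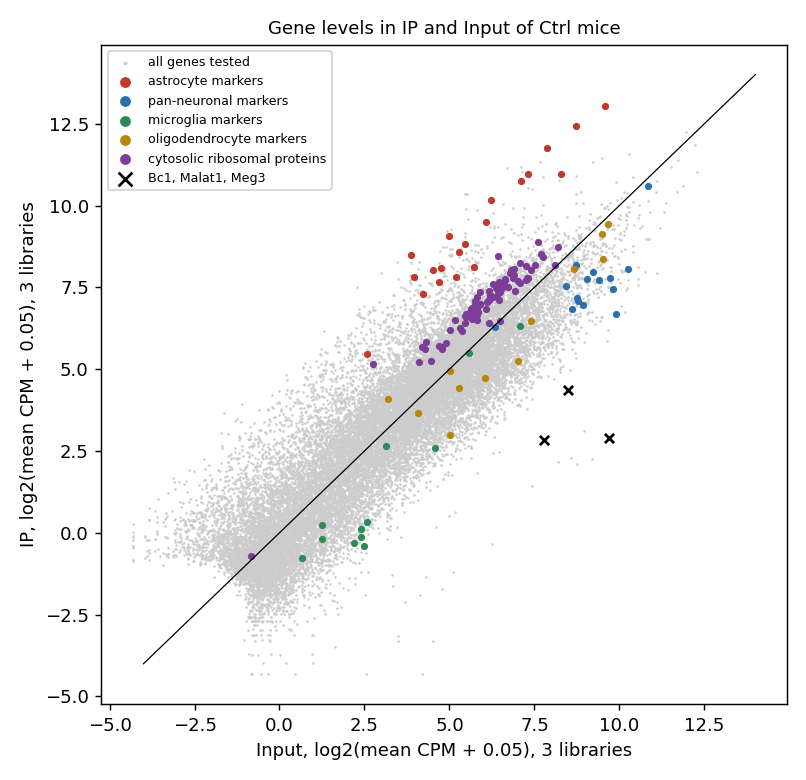
Mean level of every gene tested in Ctrl Input (x axis) and Ctrl IP (y axis), both as log2(mean CPM + 0.05) over 3 libraries, with the line of equality. Coloured points are members of 5 gene lists and crosses mark Bc1, Malat1 and Meg3. Astrocyte markers lie above the line with a median log2 ratio of 3.44, ribosomal protein genes form a narrow band above it with a median of 0.96, and the 3 noncoding RNAs lie far below it.

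Genes that clear and recycle transmitters were mostly higher in IP when assigned to astrocytes and lower when assigned to neurons. Of the genes on the astrocytic list for glutamate and glutamine, 7 of 8 were higher (median log2 ratio 2.58), with Slc1a3 and Glul at the top. Slc38a3, a glutamine transporter of astrocytes, was at 68.0, 93.6 and 87.3 CPM in IP and 10.7, 13.0 and 10.4 CPM in Input (log2 2.86 ± 0.12). Grm3, a metabotropic glutamate receptor, was at 60.0, 93.5 and 72.5 CPM in IP and 11.9, 17.5 and 14.4 CPM in Input (log2 2.36 ± 0.10). Grm5, the other metabotropic receptor of the list, was lower, at 28.5, 30.4 and 27.8 CPM in IP and 63.9, 68.2 and 60.0 CPM in Input (log2 -1.15 ± 0.09). Slc7a11, which exchanges cystine for glutamate, was higher by a small amount (0.31 ± 0.09). On the neuronal list 6 of 6 were lower (median -0.83). Slc17a7, already named among the neuron markers, was the lowest of them, and Slc38a1, a glutamine transporter of neurons, was at 49.0, 50.7 and 51.0 CPM in IP and 96.4, 102 and 87.0 CPM in Input (log2 -0.92 ± 0.10). GABA uptake and breakdown genes were higher for 6 of 6 members (median 1.39). Maob, a monoamine oxidase, was at 107, 112 and 137 CPM in IP and 10.9, 10.9 and 13.1 CPM in Input (log2 3.34 ± 0.10). The GABA transporter Slc6a11 (GAT-3) had a log2 ratio of 2.51 ± 0.15.

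Potassium, water and volume regulation genes were higher for 11 of 14 members (median 2.02). Kcnj16, an inwardly rectifying potassium channel, was at 41.8, 64.7 and 49.7 CPM in IP and 2.80, 3.61 and 3.00 CPM in Input (log2 4.04 ± 0.12). Aqp9, a channel for water and glycerol, was at 8.31, 7.16 and 6.45 CPM in IP and 0.437, 0.641 and 0.362 CPM in Input (log2 3.94 ± 0.23). The cotransporter Slc12a2 (-0.98 ± 0.10) and the chloride channel Clcn2 (-0.94 ± 0.11) were lower. Clcn2 overlaps the coding genes Polr2h and Fam131a on the opposite strand, so that their reads cannot be told apart. Of the gap junction genes, 3 of 9 were higher, near the 35.4% of all genes. Gja1, which encodes connexin 43, was at 401, 606 and 587 CPM in IP and 26.5, 32.2 and 35.5 CPM in Input (log2 4.07 ± 0.12). Gjb6 (connexin 30) was at 175, 225 and 270.2 CPM in IP and 12.3, 15.5 and 18.9 CPM in Input (log2 3.84 ± 0.10), and Gjb2 (connexin 26) had a log2 ratio of 2.01 ± 0.16. These are the connexins known from astrocytes. Lower in IP were 5 of 9 members, beside 35.7% of all genes. Among them were the neuronal connexin Gjd2 (-1.58 ± 0.21) and the pannexin Panx2 (-2.34 ± 0.14).

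Fatty acid oxidation and ketone genes were higher in IP for 20 of 21 members, with a median log2 ratio of 2.38. Acaa2, the mitochondrial thiolase, was at 95.8, 90.9 and 112 CPM in IP and 10.3, 10.5 and 10.8 CPM in Input (log2 3.24 ± 0.11). Hadh, the dehydrogenase of the preceding step, was at 122, 123 and 132 CPM in IP and 14.54, 15 and 17.7 CPM in Input (log2 3.00 ± 0.10). Ppara, a nuclear receptor for fatty acids, had a ratio of 3.21 ± 0.18. The exception was Cpt1c, the carnitine palmitoyltransferase isoform of neurons, at 11.4, 12.9 and 13.0 CPM in IP and 34.1, 47.6 and 32.2 CPM in Input (log2 -1.60 ± 0.13). Glycogen genes were higher for 14 of 16 members (median 1.98). Ppp1r3g (3.70 ± 0.11) and Ppp1r3c (3.48 ± 0.12), which target a phosphatase to glycogen, led the list. Ugp2, which makes the glucose donor for glycogen, was at 378, 405 and 334 CPM in IP and 43.5, 43.1 and 47.0 CPM in Input (log2 3.06 ± 0.12). Phka2, a subunit of phosphorylase kinase, was lower (-1.57 ± 0.13).

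Of the glycolysis and lactate transport genes, 6 of 23 were higher and 13 of 23 lower (median -0.58). Aldoc had the highest ratio of the list (3.71 ± 0.12). The enolase isoforms lay on different sides. Eno2, the isoform of neurons, was at 258, 239.5 and 309 CPM in IP and 1180.1, 1366 and 1081 CPM in Input (log2 -2.17 ± 0.14). Its paralog Eno1 was slightly higher in IP (0.27 ± 0.10). Hk1, the main hexokinase of the brain, was at 119.9, 117 and 130.5 CPM in IP and 406, 492 and 357 CPM in Input (log2 -1.76 ± 0.13). The lactate transporter Slc16a1 (1.14 ± 0.13), the glucose transporter Slc2a1 (0.95 ± 0.14) and the lactate dehydrogenase subunit Ldhb (0.86 ± 0.10) were higher.

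In the TCA cycle list 9 of 22 genes were higher and 6 of 22 lower (median 0.08), near the 35.4% and 35.7% of all genes. Suclg2, the GTP-forming subunit of succinyl-CoA ligase, was at 75.6, 78.1 and 83.6 CPM in IP and 5.59, 4.49 and 6.0 CPM in Input (log2 3.88 ± 0.12), and Suclg1, the subunit common to both forms of the enzyme, had a ratio of 1.29 ± 0.09. The isocitrate dehydrogenase Idh2 was higher (3.07 ± 0.13). Ogdh, a subunit of the oxoglutarate dehydrogenase complex, was lower, at 104, 93.6 and 105 CPM in IP and 303, 345 and 262 CPM in Input (log2 -1.58 ± 0.12). Pcx, the pyruvate carboxylase, was lower too (-0.61 ± 0.14). It overlaps the coding gene Lrfn4 on the opposite strand, so that reads of the pair cannot be told apart. Nuclear-encoded subunits of the respiratory chain were higher for 65 of 80 genes, with a median of 0.74. Cox4i2 (3.14 ± 0.28) and Cox6a2 (-1.79 ± 0.20), both isoforms of cytochrome oxidase subunits, stood at the opposite ends of this list.

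Cholesterol synthesis genes were higher in IP for 15 of 23 members and lower for 5 (median log2 ratio 0.76). Idi1, an isomerase of isoprenoid precursors, was at 331, 358 and 277 CPM in IP and 42.9, 37.4 and 46.2 CPM in Input (log2 2.93 ± 0.14). Msmo1 (2.45 ± 0.11) and Sc5d (1.59 ± 0.12), enzymes of sterol synthesis, followed it. Srebf2, which regulates the pathway, was lower, at 78.7, 95.1 and 88.6 CPM in IP and 134, 176 and 106 CPM in Input (log2 -0.64 ± 0.13). The isomerase Ebp was lower as well (-0.43 ± 0.16).

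Lipoprotein and lipid transport genes were higher for 7 and lower for 7 of 15 members, beside 35.4% and 35.7% of all genes. Beside Apoe, the secreted apolipoprotein Clu was higher, at 1040.3, 1577 and 1712 CPM in IP and 138, 214 and 168 CPM in Input (log2 3.05 ± 0.13). Lcat, which esterifies cholesterol in lipoproteins, had a ratio of 3.82 ± 0.14. The lipid exporters Abcg1 (-2.68 ± 0.12), Abcg4 (-1.69 ± 0.14) and Abca7 (-1.44 ± 0.28) were lower. The lipoprotein receptors Lrp1 (-1.86 ± 0.19) and Scarb1 (-1.36 ± 0.13) and the lipase Lpl (-1.31 ± 0.15) were lower too.

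Serine, glycine and one-carbon genes were higher for 16 of 21 members (median 1.51). Phgdh, the first enzyme of serine synthesis, was at 267, 280.5 and 301 CPM in IP and 33.8, 35.0 and 30.3 CPM in Input (log2 3.10 ± 0.11). Gldc, the decarboxylase of the glycine cleavage system, was at 67.1, 67.7 and 69.4 CPM in IP and 8.82, 8.28 and 7.97 CPM in Input (log2 3.02 ± 0.11). The folate enzyme Mthfd1l (-1.37 ± 0.11) and the glycine transporter Slc6a9 (-0.49 ± 0.11) were lower. Glutathione and antioxidant genes were higher for 16 of 21 members (median 2.15). Mt1, a metallothionein, was at 2115, 1987 and 2628 CPM in IP and 97.9, 94.7 and 121 CPM in Input (log2 4.42 ± 0.11). The superoxide dismutase Sod2 (0.05 ± 0.10) and the glutathione peroxidase Gpx1 (-0.03 ± 0.10) were not called. Gss, the glutathione synthetase, was lower (-0.71 ± 0.10). Gss overlaps the coding gene Acss2, and Slc6a9 overlaps the coding genes B4galt2 and Ccdc24, on the opposite strand. Reads of these overlapping genes cannot be told apart.

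Transcription factors of the astrocyte lineage had the highest median of the functional lists, 2.67, and 25 of 26 were higher in IP. Id3, an inhibitor of differentiation factors, was at 616, 602 and 556 CPM in IP and 30.8, 30.8 and 29.0 CPM in Input (log2 4.29 ± 0.11). Its paralog Id1 had a ratio of 4.15 ± 0.11. Dbx2, a homeobox gene, was at 225, 235 and 191 CPM in IP and 12.1, 12 and 9.62 CPM in Input (log2 4.27 ± 0.11). Nfib (1.28 ± 0.11) and Gli1, a Hedgehog effector (1.38 ± 0.21), were higher by less. Nfix, of the same family as Nfib, was lower, at 159, 161 and 188 CPM in IP and 309, 322 and 285 CPM in Input (log2 -0.85 ± 0.11). It overlaps the coding genes Lyl1 and G430095P16Rik on the opposite strand, and Gli1 overlaps the coding gene Arhgap9 in this way. Reads of these overlapping genes cannot be told apart. Receptors for growth factors, Notch, Hedgehog and Wnt ligands were higher for 16 of 26 members and lower for 7 (median 0.85). Bmpr1b (3.28 ± 0.15), Fgfr3 (2.95 ± 0.12) and Fzd2 (2.74 ± 0.14) were the highest, and the receptor tyrosine kinases Kit (-2.25 ± 0.14), Erbb3 (-1.89 ± 0.20) and Erbb4 (-1.49 ± 0.12) the lowest.

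Most transmitter receptors were lower in IP. Among G protein-coupled receptors 18 of 29 were lower (median log2 ratio -0.94), and the muscarinic receptor Chrm1 was at 25.2, 26.1 and 27.7 CPM in IP and 133, 165 and 115 CPM in Input (log2 -2.37 ± 0.13). S1pr1, a sphingosine-1-phosphate receptor, was at 540.2, 712 and 608 CPM in IP and 27.6, 33.9 and 37.9 CPM in Input (log2 4.23 ± 0.12). The other receptors higher in IP were Ednrb for endothelin (3.89 ± 0.12), Adora2b for adenosine (3.77 ± 0.21), Ntsr2 for neurotensin (3.54 ± 0.10), Gpr37l1 (3.38 ± 0.12) and Grm3. Of the ionotropic subunits 27 of 35 were lower (median -1.04). Grin1, the obligatory subunit of NMDA receptors, was at 36.4, 36.9 and 46.7 CPM in IP and 279, 377 and 234 CPM in Input (log2 -2.87 ± 0.18). Grin2c, of the same receptor family, was higher, at 46.1, 66.1 and 59.0 CPM in IP and 9.08, 14.8 and 8.64 CPM in Input (log2 2.42 ± 0.13). Gabrg1, a GABA-A receptor subunit, was at 45.3, 55.5 and 57.7 CPM in IP and 3.32, 3.50 and 4.19 CPM in Input (log2 3.84 ± 0.12). Gabrb1 (0.94 ± 0.10) and Gabra2 (0.37 ± 0.10), subunits of the same receptor class, were higher by less.

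Of 19 synapse-forming, pruning and adhesion genes, 11 were higher and 6 lower, beside 35.4% and 35.7% of all genes (median 0.38). Chrdl1, a secreted factor of astrocytes that acts on synapse maturation, was at 21.2, 38.9 and 40.1 CPM in IP and 1.57, 1.63 and 2.28 CPM in Input (log2 4.15 ± 0.16). The glypican Gpc5 (3.33 ± 0.12) and the phagocytic receptor Mertk (2.91 ± 0.11) were higher as well. The neuroligins Nlgn2 (-1.52 ± 0.15) and Nlgn3 (-1.19 ± 0.11) and the neurexins Nrxn2 (-0.83 ± 0.15) and Nrxn3 (-0.91 ± 0.09) were lower. Of the matrix genes 7 of 13 were higher and 4 of 13 lower, beside the same shares of all genes (median 1.07). The lectican Bcan was at 279, 402 and 439 CPM in IP and 53.4, 80.2 and 56.5 CPM in Input (log2 2.55 ± 0.14). Acan, the lectican of perineuronal nets, was near the floor in IP, at 0.114, 0.154 and 0.201 CPM in IP and 1.92, 2.45 and 0.931 CPM in Input (log2 -3.41 ± 0.44).

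Genes known from reactive astrocytes were higher in IP for 12 of 25 members and lower for 3 (median 0.63). Vim, the vimentin gene, was at 125, 123 and 131 CPM in IP and 13.8, 14.2 and 10.9 CPM in Input (log2 3.29 ± 0.12). Timp1, a protease inhibitor gene, was lower, at 1.41, 0.886 and 1.65 CPM in IP and 9.30, 10.4 and 9.41 CPM in Input (log2 -2.89 ± 0.22). Timp1 overlaps Syn1 on the opposite strand, which had a ratio of -3.21 at 950.5, 1089 and 808 CPM in Input, so that reads of the pair cannot be told apart. Lcn2, which encodes lipocalin 2, was also lower, at 0.229, 0.154 and 0 CPM in IP and 1.18, 1.75 and 0.621 CPM in Input, which is near the floor in IP. H2-T23, a gene of antigen presentation, was the third gene lower in IP (-0.46 ± 0.17).

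Immediate early genes had the lowest median of the functional lists, -1.53, and 17 of 18 were lower in IP. Egr1, a transcription factor induced by activity, was at 69.7, 59.7 and 56.9 CPM in IP and 551, 457 and 306 CPM in Input (log2 -2.78 ± 0.13). Its Input values spread over a wider range than its IP values, without overlap between them. Jun was not called (0.15 ± 0.11). Neuropeptides and neurotrophins were lower for 13 of 15 members (median -1.44). Chgb, a granin of secretory vesicles, was at 28.2, 30.4 and 29.1 CPM in IP and 146, 176 and 146 CPM in Input (log2 -2.41 ± 0.10). Bdnf, a neurotrophin, was not called, at 9.30, 11.2 and 6.93 CPM in IP and 10.9, 11.5 and 8.95 CPM in Input.

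Genes of the translation apparatus were mostly higher in IP, by moderate amounts. Of the cytosolic ribosomal protein genes 79 of 83 were higher and none lower, with a median log2 ratio of 0.96. Rps27l, a paralog of a small-subunit protein gene, was at 38.1, 38 and 31.6 CPM in IP and 6.60, 6.82 and 6.83 CPM in Input (log2 2.41 ± 0.12), above the tagged gene Rpl10a. Rpl34 followed at 1.51 ± 0.11. Rps2 (-0.03 ± 0.10), Rpl3 (0.06 ± 0.10) and Rpl3l (0.08 ± 0.52) were not called. Many ribosomal protein genes have processed copies in the genome, among which the authors' counting could divide reads. Mitochondrial ribosomal protein genes were higher for 52 of 77 members (median 0.52). Translation factors were higher for 30 and lower for 14 of 66 genes (median 0.17). Eef1a2, the elongation factor isoform of neurons and muscle, was lowest, at 272, 244 and 321 CPM in IP and 1484, 1776 and 1251 CPM in Input (log2 -2.43 ± 0.16). Eif2ak2, a kinase activated by double-stranded RNA, was highest (2.66 ± 0.15). For translocation into the endoplasmic reticulum and folding there, 12 of 24 genes were higher and 2 lower (median 0.27). Their ratios ranged from -0.80 ± 0.12 for the chaperone Calr to 1.45 ± 0.11 for the cochaperone Dnajc3.

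**Figure D3:**
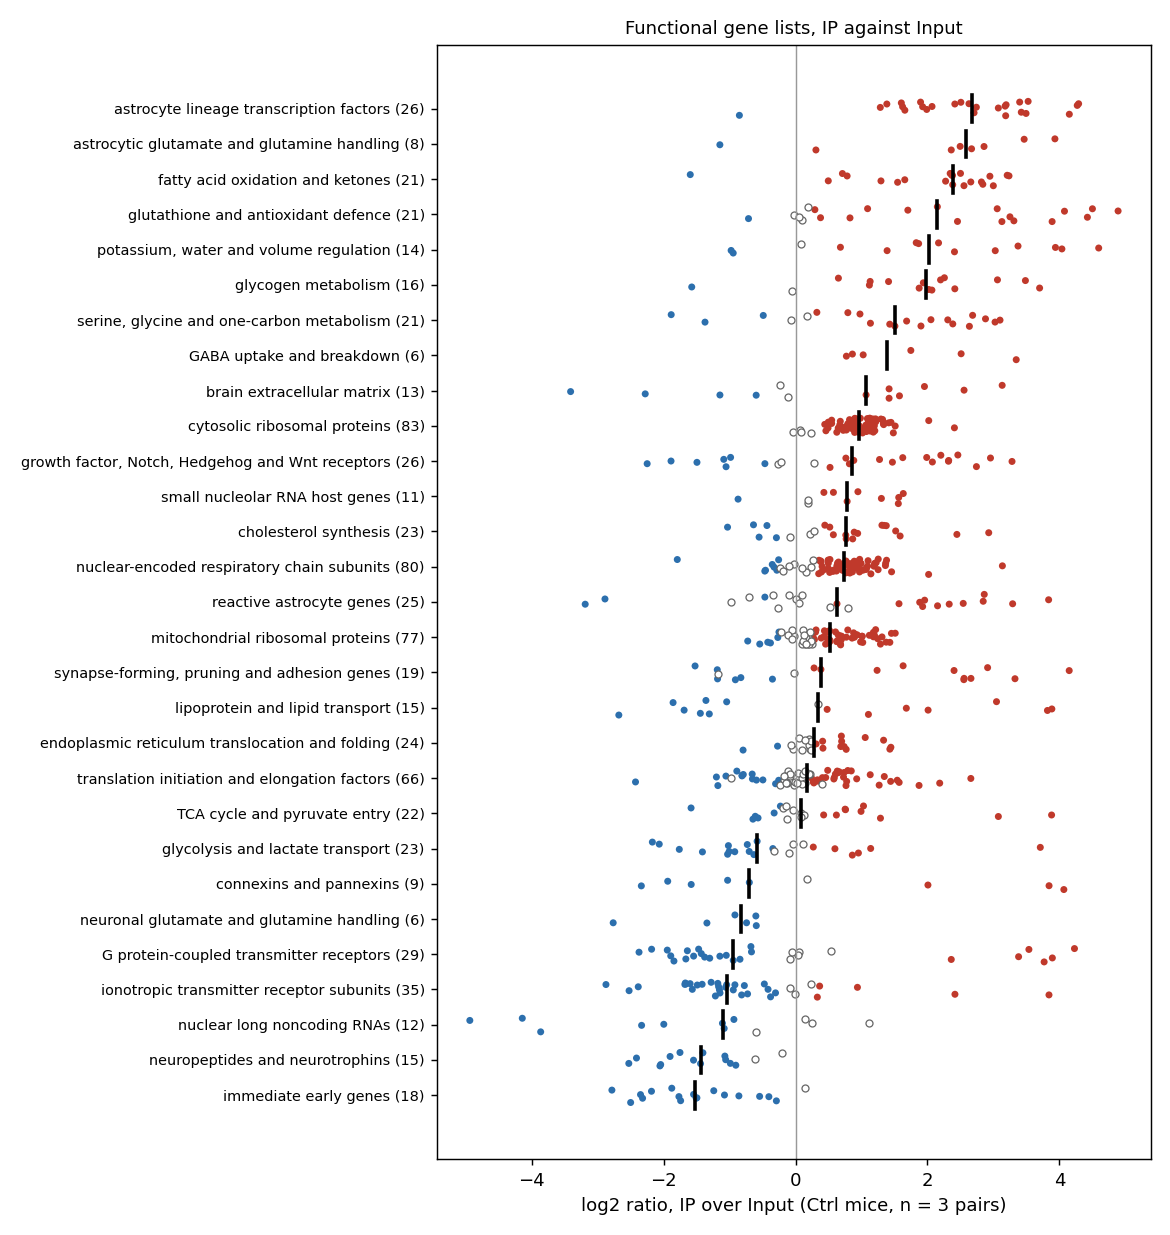
Fitted log2 ratio of IP over Input in Ctrl mice (x axis, n = 3 pairs) for the members of 29 functional lists, ordered by their median (black bars), with the number of members tested. Red points were higher, blue points lower and open points not called at an adjusted p under 0.05. Ribosomal protein genes form a tight group with a median of 0.96, and immediate early genes stand last with a median of -1.53.

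Bc1, a short RNA of neurons made by RNA polymerase III, had one of the lowest ratios of all genes. It was at 12, 4.55 and 5.48 CPM in IP and 873, 821 and 799 CPM in Input (120.4-fold lower, log2 -6.91 ± 0.26). The annotated transcript lies at chr7:144914470-144914637 on the plus strand of GRCm38. Its sequence from the GENCODE transcripts is shown because Bc1 is noncoding yet has an A-rich centre, and the libraries were made from RNA selected on oligo-dT beads. Capitals mark the 20 bases with which that stretch opens.
Bc1: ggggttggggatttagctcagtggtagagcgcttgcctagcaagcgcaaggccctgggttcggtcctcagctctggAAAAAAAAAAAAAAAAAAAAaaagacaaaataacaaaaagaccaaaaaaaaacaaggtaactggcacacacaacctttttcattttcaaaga
The nuclear long noncoding RNA Malat1 was at 8.00, 7.59 and 5.84 CPM in IP and 211, 200.2 and 247 CPM in Input (log2 -4.94 ± 0.16). Meg3, an imprinted noncoding RNA, was at 23.9, 20.3 and 16.8 CPM in IP and 376, 313 and 385 CPM in Input (log2 -4.14 ± 0.14), and Miat had a ratio of -3.86 ± 0.12. On the list of nuclear noncoding RNAs 8 of 12 were lower and none was higher. Neat1, which builds nuclear paraspeckles, was not called, at 3.51, 4.16 and 5.52 CPM in IP and 4.02, 2.97 and 3.98 CPM in Input. Host genes of small nucleolar RNAs were higher for 8 of 11 members (median 0.78). Snhg1 was at 15, 14.8 and 14.2 CPM in IP and 5.20, 3.38 and 5.69 CPM in Input (log2 1.63 ± 0.17), and Snhg14 was lower (-0.87 ± 0.10).

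Pseudogenes that resemble the mitochondrial genome were also among the lowest. Of 3362 pseudogenes tested, 11 matched one of 15 mitochondrial transcripts with at least 95% identity over at least 80% of their length, and 7 of the 11 lie on chromosome 1. All 11 were lower in IP, beside 35.7% of all genes, with log2 ratios from -6.97 to -3.41 (median -6.35). Gm28437, identical to mt-Co3 over 783 bases, was at 6.75, 4.39 and 2.98 CPM in IP and 515, 646 and 582 CPM in Input (126-fold lower). Gm10925, identical to mt-Atp6, had a log2 ratio of -6.74 ± 0.34, and Gm10222, identical to mt-Nd4l, one of -6.70 ± 0.21. Together the 11 summed to 43.9, 31.0 and 18.3 CPM in IP and to 2253, 2639 and 2632 CPM in Input. The genes of the mitochondrial genome itself were not analysed here, so whether the counts of these pseudogenes hold reads of mitochondrial transcripts cannot be told. Over the matched bases 5 of the 11 were 100% identical to their mitochondrial transcript. Gm13340, at chr2:22588103-22589647 on the minus strand of GRCm38, was 97.6% identical to mt-Co1 over 1545 bases. Bases 445 to 534 of both transcripts are printed, with the 5 bases at which they differ in capitals. This stretch was chosen after the values were seen, as the 90 bases with the most differences, so the rest of the copy is closer to mt-Co1.
Gm13340: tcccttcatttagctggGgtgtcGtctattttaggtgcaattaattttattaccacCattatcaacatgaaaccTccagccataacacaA
mt-Co1: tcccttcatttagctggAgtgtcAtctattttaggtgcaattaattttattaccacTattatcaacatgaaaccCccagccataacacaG
A read that falls between such differences fits both places, and the origin of the reads counted on these pseudogenes was not tested.

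The 3 protein-coding genes with the lowest ratios were the fibroblast growth factor genes Fgf4, Fgf15 and Fgf3, which encode secreted ligands. They are neighbours of Bc1 on chromosome 7, with starts 67103, 17939 and 76387 bases from its start. Fgf4 had 0 counts in each of the 3 IP libraries and 431, 319 and 340 counts in Input. Against a floor of 3 counts per library it was at least 148-fold lower in IP. Fgf15 had 2, 1 and 1 counts in IP and 533, 397 and 426 in Input. Fgf3 had 7, 5 and 5 counts in IP and 413, 303 and 327 in Input. Over the 6 TRAP-Seq Input libraries of both genotypes, Bc1 ranged from 14079 to 71715 counts. The count of Fgf4 stayed between 1.90% and 2.27% of that of Bc1 in these libraries. For Fgf15 it stayed between 2.46% and 2.82%, and for Fgf3 between 1.80% and 2.15%. Other neighbours on the same side of Bc1 also tracked it. Gm10152 and Gm44929 stayed between 1.14% and 1.43% of Bc1, with at most 5 counts in each Ctrl IP library. Gm9711, also on that side, had 37, 56 and 50 counts in Ctrl IP. LTO1 and Ccnd1, on the other side, ranged from 1.07% to 4.43% and from 0.918% to 5.05%. Whether the reads counted on the Fgf genes come from the Fgf genes was not tested.

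**Figure D4:**
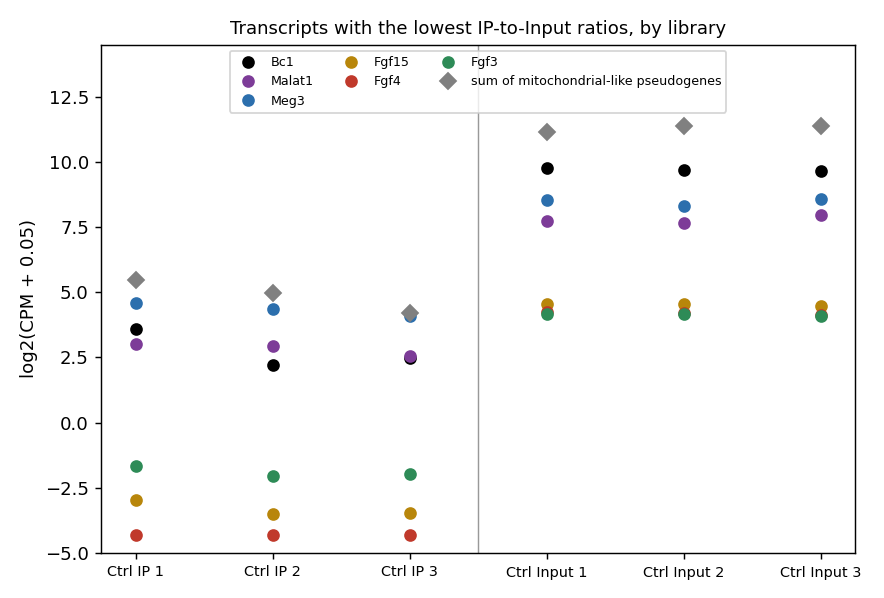
Level of transcripts with very low ratios in each of the 6 Ctrl libraries (x axis), as log2(CPM + 0.05) on the y axis. Each point is 1 gene, or for the diamonds the sum of 11 mitochondrial-like pseudogenes, in 1 library. All 3 Input libraries lie above all 3 IP libraries for each of them, and Fgf4 is at 0 counts in IP. The rule that named Fgf3, Fgf4 and Fgf15 required this separation.

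The next 8 coding genes shown in that order included 3 spectrin genes. The spectrin gene Sptb, of the membrane skeleton, was at 4.23, 4.66 and 7.58 CPM in IP and 83.9, 103 and 77.4 CPM in Input (log2 -4.02 ± 0.20). Sptan1, its partner in spectrin tetramers, was at 75.5, 63.4 and 79.2 CPM in IP and 841, 886 and 729.7 CPM in Input (log2 -3.49 ± 0.14), and Sptbn4 had a ratio of -3.49 ± 0.17. Map1a, a microtubule-associated protein gene, was at 57.9, 50.7 and 65.0 CPM in IP and 809.8, 956 and 624 CPM in Input (log2 -3.77 ± 0.18). Bsn encodes Bassoon, a scaffold of the presynaptic active zone, and was at 26.4, 31.9 and 36.3 CPM in IP and 394, 457 and 262 CPM in Input (log2 -3.53 ± 0.20). The remaining 3 log2 ratios were -3.39 for Hectd4, -3.37 for Nrsn1 and -3.36 for Nacad. Exonic lengths of these 8 genes had a median of 12156.5 bases (2798 to 16443) and their GC content a median of 56.1%. The 12 coding genes with the largest ratios in the other direction had a median length of 2579.5 bases and a median GC content of 44.4%. Over all 15407 coding genes tested the medians were 4318 bases and 49.9%.

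Across protein-coding genes the ratio fell with GC content and with length. Between the lowest and the highest decile of GC content, the median log2 ratio went from 0.58 to -0.74 (Spearman rho -0.31 across 15407 genes). In the lowest decile 59.5% of genes were higher in IP, and in the highest 21.1%. Between the shortest and the longest decile of exonic length the median went from 0.48 to -0.46 (rho -0.20). In the cKO libraries the medians went from 0.54 to -0.77 with GC content. These relations are across genes, which are not independent replicates, and their part in the ratios of single genes was not tested. After the median of the GC decile was subtracted from each gene, the list median was 3.76 for astrocyte, -1.41 for pan-neuronal and 1.24 for cytosolic ribosomal protein genes. The median of the glycolysis list moved from -0.58 to -0.17, that of the matrix list from 1.07 to 0.74 and that of the synapse list from 0.38 to 0.22. That of fibroblast and meningeal markers moved from -2.22 to -1.48. Of the 43 lists, the mural cell list alone changed the sign of its median, to 0.48.

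**Figure D5:**
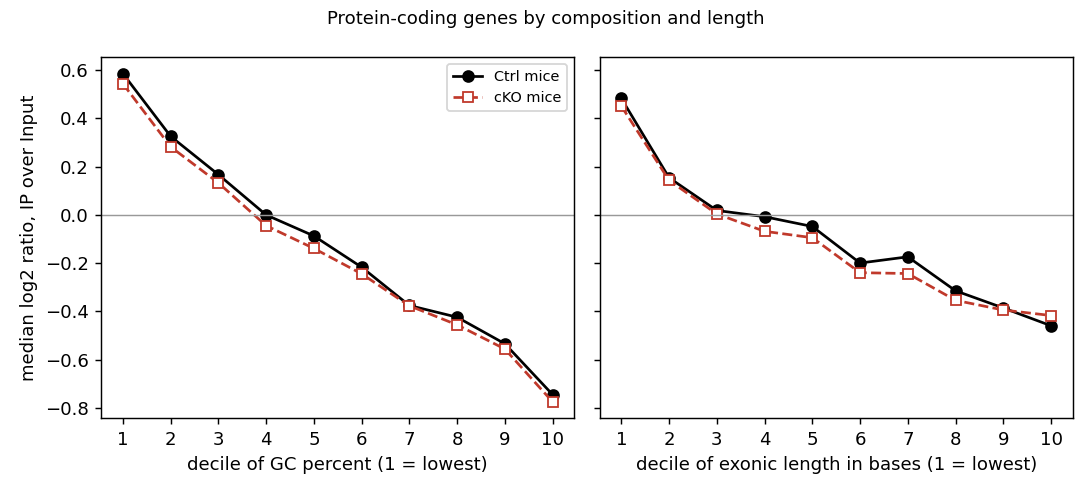
Median log2 ratio of IP over Input (y axis) of protein-coding genes in deciles of GC content (left, x axis) and of exonic length (right, x axis), for Ctrl mice (filled circles) and cKO mice (open squares). The lines fall from left to right, in Ctrl mice from 0.58 to -0.74 with GC content and from 0.48 to -0.46 with length.

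Gene classes differed in their ratios. Protein-coding genes had a median log2 ratio of -0.09, with 35.6% higher and 40.9% lower in IP. Processed pseudogenes had a median of 0.55, and 51.4% of 2891 were higher. Near-identical copies can share reads with their parent genes, and the origin of the reads counted on pseudogenes was not tested. Antisense genes had a median of -0.34 (1744 tested) and sense intronic genes one of -0.68 (106 tested). The median of 1032 lincRNAs was 0.04.

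The cKO mice, which share no library with the Ctrl mice, gave ratios close to those above for most genes. In the same fit 12943 of 24011 genes were called (53.9%), 16482 without cKO mouse 1, whose Input stood apart, 9752 without mouse 2 and 9523 without mouse 3. The log2 ratios of Ctrl and cKO mice had a Pearson r of 0.926 across 23429 genes, as a description. Among these genes tested in both genotypes, 4584 were called at least 2-fold higher in Ctrl mice, of which 3656 were so called in cKO mice too. This is 79.8% of the Ctrl genes and 82.1% of the cKO genes. At least 2-fold lower in both were 3729 genes, 79.1% of the Ctrl and 85.2% of the cKO genes of that direction. The median of the astrocyte markers was 3.44 in Ctrl and 2.62 in cKO mice, and that of the pan-neuronal markers -1.70 and -1.77. For reactive astrocyte genes the medians were 0.63 and 1.89. Differences between these medians were not tested.

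A test of whether the ratio itself differed between genotypes called 6 of 25768 genes (0.0233%), 4 with a higher and 2 with a lower ratio in cKO mice. Without a Ctrl mouse the test called 2, 2 and 6 genes, and without a cKO mouse it called 172, 12 and 1, for mice 1, 2 and 3. Sult1a1, a sulfotransferase, was at 74.4, 36.0 and 77.4 CPM in IP and 7.43, 5.34 and 7.76 CPM in Input of Ctrl mice. In cKO mice it was at 13.5, 9.05 and 9.32 CPM in IP and 7.39, 4.21 and 3.78 CPM in Input. Its log2 ratio was 3.14 in Ctrl and 1.07 in cKO mice (adjusted p of the difference = 0.025, edgeR). Igfbp3, which binds insulin-like growth factors, was at 5.04, 4.12 and 5.74 CPM in IP and 9.16, 7.91 and 9.92 CPM in Input of Ctrl mice. Its log2 ratio was -0.87 in Ctrl and 1.51 in cKO mice (adjusted p = 0.024, edgeR). Per-mouse ratios without overlap between the genotypes were a condition for naming either gene. Neither difference was called when any 1 Ctrl mouse or cKO mouse 3 was left out, with adjusted p between 0.079 and 0.20.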

How the data were processed

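TRAP-Seq reads were mapped by the authors with RNA STAR in Galaxy to mm10, and the deposited table holds raw read counts per Ensembl gene and library. The counting tool, its strand setting and the annotation are not given in the sources used here. Values of overlapping genes and near-identical copies are therefore uncertain, for genes that follow their list as for exceptions. Among others, Glul, Gli1, P2ry12, Tagln, Gabrb1, Ermn, Cox6a2, Map1a, Sptb and Rpl3 also overlap a coding gene on the opposite strand. Positions, biotypes and transcript sequences were taken from GENCODE M21 (GRCm38). A few genes are not reported here.

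From the counts, genes were filtered with filterByExpr (minimum count 10, total 15, 70% of the smaller group), scaled with TMM and fitted in edgeR 4.0.16 (R 4.3.3) with the mouse as a block and the quasi-likelihood test, in Ctrl mice (3 pairs), in cKO mice and, for the interaction, in all 12 libraries. P-values were Benjamini-Hochberg adjusted over all genes tested and called under 0.05. Errors of log2 ratios are SE. CPM per library are on TMM-scaled library sizes, and totals of 18433087 to 25284490 reads set the precision (counting error only). Pairs came from the same mouse by the labels. Deviations from the group means correlated weakly within a mouse (r 0.0709, 0.0686 and 0.0800), and r was -0.0451 to -0.0192 between mice. The values between mice are not a separate contrast. Deviations from a mean of 3 libraries sum to 0, so positive values within mice force negative ones between mice.

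Named genes were the markers Gfap, Aldoc, Apoe and Aqp4, the 12 coding and 5 noncoding genes with the largest ratios in each direction (mean log2 CPM of at least 3, no overlap), the 12 coding genes with the highest IP TPM, the 3 highest and 3 lowest members of each list, members called against their list, check genes and up to 5 genes per direction of the interaction. The members and lists were chosen with earlier results of these data known. Alternatives were DESeq2 1.42.0, the likelihood ratio test, glmTreat, other scalings and filters, no block, a joint fit of both genotypes, and the omission of 1 mouse at a time. The subtraction of GC decile medians was added after seeing the data. The Ctrl fit was also run on simulated counts of the 6 Ctrl libraries, while the cKO and interaction fits were not. It called 77.7% of simulated 2-fold changes, 47.9% of 1.5-fold changes and 0.117% of unchanged genes. In the simulation 23003 of 23193 genes were unchanged, whereas 71.1% of genes were called in the data. Bulk cortex libraries were not used here.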

Additional observations from a re-analysis of the deposited data

Results flagged for a closer look

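The difference between IP and Input differed between genotypes, by a test of the difference itself, for 3 genes whose mean log2 CPM reached 3 and whose per-mouse ratios did not overlap between genotypes. The log2 ratio of Igfbp3 was 2.39 higher in cKO than in Ctrl mice (SE 0.25, adjusted p = 0.024, edgeR). That of Cela1, a serine protease gene, was 2.51 higher (SE 0.29, adjusted p = 0.025, edgeR), from -0.44 in Ctrl to 2.06 in cKO mice. That of Sult1a1 changed by -2.06 (SE 0.23, adjusted p = 0.025, edgeR). The signs held in 3 of 3 mice of each genotype for Igfbp3 and Cela1, negative in Ctrl and positive in cKO mice, while Sult1a1 was positive in all 6 mice. None of the 3 was called without Ctrl mouse 1, 2 or 3 or without cKO mouse 3, with adjusted p between 0.079 and 0.20 (edgeR), and each was called without cKO mouse 1 or 2. The differences kept their direction in each of these fits.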

How the results depend on the processing

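The number of genes called in Ctrl mice stayed within 1.5 times of 17332 in 12 alternatives, and was 6370 (3187 higher, 3183 lower) when glmTreat tested against a 2-fold change, which called 343 instead of 733 of 869 list members. Without the replicate block 17304 genes were called, and without 1 mouse between 15410 and 17663. The pairing changed the interaction count, which was 15 without the block instead of 6. That count was 247 with the likelihood ratio test, 169 with DESeq2, 413 with no filter, 15 with at least 10 counts in every library and between 1 and 172 without 1 mouse. The median of the mural cell list (-0.21) was 0.44 with at least 10 counts in every library, 0.027 without replicate 1, -0.21 without replicate 2 and 0.48 after subtraction of GC decile medians. The cause was not tested. Other list medians kept their sign. Of 326 named genes, 217 kept their call in every one of the 13 alternatives that tested them. None changed sign where it was called in either fit, and sign changes of genes called in neither were not counted. Under other scalings the median of all genes moved from -0.03 to at most 0.05. Counts below 3 limit statements on genes such as Fgf4 in IP.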
